A study of Mus musculus with 20 samples.

Results

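Macrophages of visceral adipose tissue (VAT, the fat around the abdominal organs) were compared with macrophages of the spleen in 24-month-old wild-type mice. The comparison used 4 VAT and 4 spleen RNA-seq libraries, 8 of the 20 in the series, taken by their labels from the table that holds all wild-type libraries. All mice were male, and the labels name no strain. In both tissues the cells had been isolated by fluorescence-activated sorting for F4/80 and CD11b, a pair of surface proteins carried by most tissue macrophages. Wild-type macrophages at 3 months of age (3 VAT and 2 spleen libraries) served to test whether a tissue difference changed with age. Macrophages of 24-month-old mice lacking Nlrp3 (4 VAT and 3 spleen libraries) were set beside them without a test. Nlrp3 is the sensor that assembles an inflammasome, the complex which activates caspase-1 and releases interleukin-1β. The labels do not tie libraries to individual mice or say whether animals were pooled, so the p-values measure the spread between these libraries, part of which may be technical.

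Tissue macrophages share a core program and add functions set by the organ in which they live. In the spleen, red pulp macrophages take up aged red blood cells, split haem with haem oxygenase and return iron to plasma through ferroportin, a program that depends on the transcription factor Spi-C. Other splenic macrophages line the marginal zone and capture particles from blood. In fat, resident macrophages lie along vessels and nerves and carry scavenger receptors such as Lyve1, Mrc1 and Folr2. A second population, the lipid-associated macrophages, takes up and degrades lipid released by adipocytes and is marked by Trem2, Cd36, Lpl and lysosomal enzymes. Monoamine oxidase A (Maoa) in fat macrophages degrades the catecholamines that drive lipolysis, which is the setting the study's title names.

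Reads recovered for the genes of the table were mostly more numerous in the 24-month VAT libraries, though the lowest VAT library barely exceeded the highest spleen library. The 24-month VAT libraries held about 32780000 to 36770000 gene reads and the spleen libraries about 27250000 to 32760000. A gene value is a read count divided by the library's size factor, and a gene with 0 reads is listed at 1. The first principal component of the 8 libraries carried 71.3% of the variance and separated the tissues. Spearman correlations across genes were 0.9585 to 0.9797 within a tissue and 0.7884 to 0.8188 between tissues. A pair of libraries stood apart from the rest of their group. VAT replicate 4 had the highest VAT values of Trem2, Gpnmb, Lpl and Fabp4 and the lowest of several resident genes, and spleen replicate 1 lay at −84.05 on the second component against 0.018 to 42.9 for the other spleen libraries. Values without VAT replicate 4 are given beside several of the results it moves.

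A large share of genes differed between the tissues. Of 13702 genes tested with limma, 6726 (49.1%) had a Benjamini-Hochberg adjusted p under 0.05 and are called here. Of these, 3639 (26.6% of the genes tested) were higher in VAT and 3087 (22.5%) were higher in spleen. The median difference over all genes was 0.02 on the log2(value + 1) scale, VAT minus spleen, which is the scale of every difference below unless another is named. All 4 libraries of a tissue lay above all 4 of the other at 5933 genes (43.3%). Differences over 3 were called for 1141 genes in the direction of VAT and 689 in that of spleen, and 436 and 179 of these exceeded 5. Of the genes called, 350 had 0 reads in every spleen library and 87 had 0 reads in every VAT library. The split between tissues depended on the scaling. With libraries scaled to their total reads the median gene shifted to −0.46 and 2434 genes were called higher in VAT against 5702 in spleen. With quantile normalisation the median was −0.11, and 3233 genes were called higher in VAT against 3806 in spleen. List counts below are to be read against the shares of all genes called in each direction under the same scaling.

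**Figure D1:**
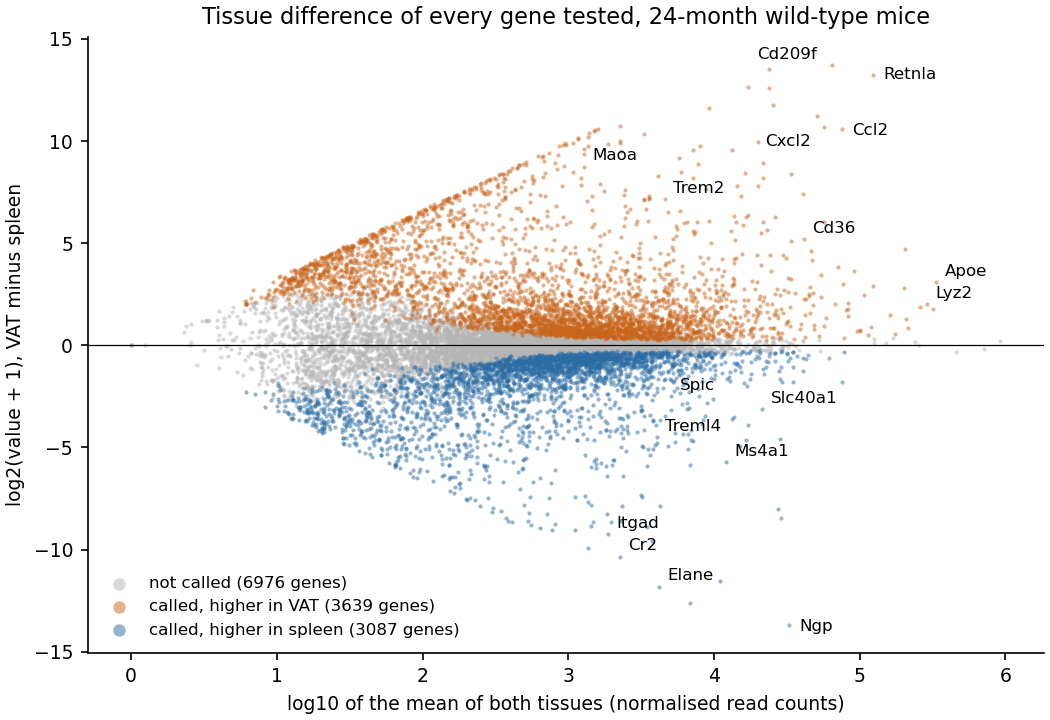
Each point is a gene tested. The x axis is log10 of its mean normalised read count over both tissues, and the y axis is the difference in log2(value + 1), VAT minus spleen, at 24 months (n = 4 and 4). Orange and blue mark the 3639 and 3087 genes called higher in VAT and in spleen, and grey those not called. The labelled genes are described in the text.

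Genes of the macrophage core were present in all 8 libraries and mostly higher in VAT. Of 12 pan-macrophage genes, 10 were called higher in VAT, 0 in spleen, and the list's median was 1.79 against 0.02 for all genes. The summed level of the list was 788044 to 868108 in VAT and 177313 to 246908 in spleen, with no overlap. Adgre1 encodes F4/80, the antigen used in the sort. It stood at 24100, 33394, 29805 and 45465 in the VAT libraries and at 8808, 7874, 8061 and 8840 in the spleen libraries. Every VAT library was above every spleen library, by 1.95 (SE 0.19, adjusted p = 4.53e-07). Itgam, the gene of CD11b, was at 7574 to 11505 in VAT and 3647 to 5405 in spleen, again without overlap (1.22, SE 0.15, adjusted p = 5.69e-06). Csf1r, the receptor for the survival factor CSF1, averaged 68160 ± 12952 in VAT and 22947 ± 5874 in spleen (SD, n = 4). The phagosome protein gene Cd68 and the lysozyme gene Lyz2 were higher in VAT by 2.25 and 2.01. Cd14, the co-receptor for bacterial lipopolysaccharide, had the widest gap of the list, 69980 to 106062 in VAT and 2995 to 4756 in spleen (4.63, SE 0.22). Mertk, which binds dead cells, was higher in VAT by 0.75 (adjusted p = 0.00961), a call that was lost with scaling to total reads (0.27, adjusted p = 0.278). In bulk samples of this kind, fewer cells of a type and less RNA per cell cannot be told apart, and markers of other cells moved with the tissues as well.

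Those other markers ran in opposite directions. B cell, neutrophil, T cell and natural killer cell genes were higher in spleen, and fibroblast genes were higher in VAT. All 11 B cell markers tested were called higher in spleen (median −5.70), with summed levels of 87442 to 164603 in spleen and 2640 to 10825 in VAT. Of 13 neutrophil markers 12 were called higher in spleen (median −8.45), summing to 197335 to 399875 against 5778 to 18324. The neutrophil granule genes Camp and Elane had 0 reads in all 4 VAT libraries. Of 13 fibroblast and preadipocyte markers 12 were called higher in VAT (median 8.34, or 8.28 with the members at 0 reads placed at the bound that 3 reads allow), summing to 66772 to 101196 in VAT and 299 to 461 in spleen. Thy1, which T cells also carry, was the 1 member called higher in spleen and is named because it makes up that count. The part these cells had in the tissue differences that follow was not tested, and their levels are given again where a gene group overlaps theirs.

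**Figure D2:**
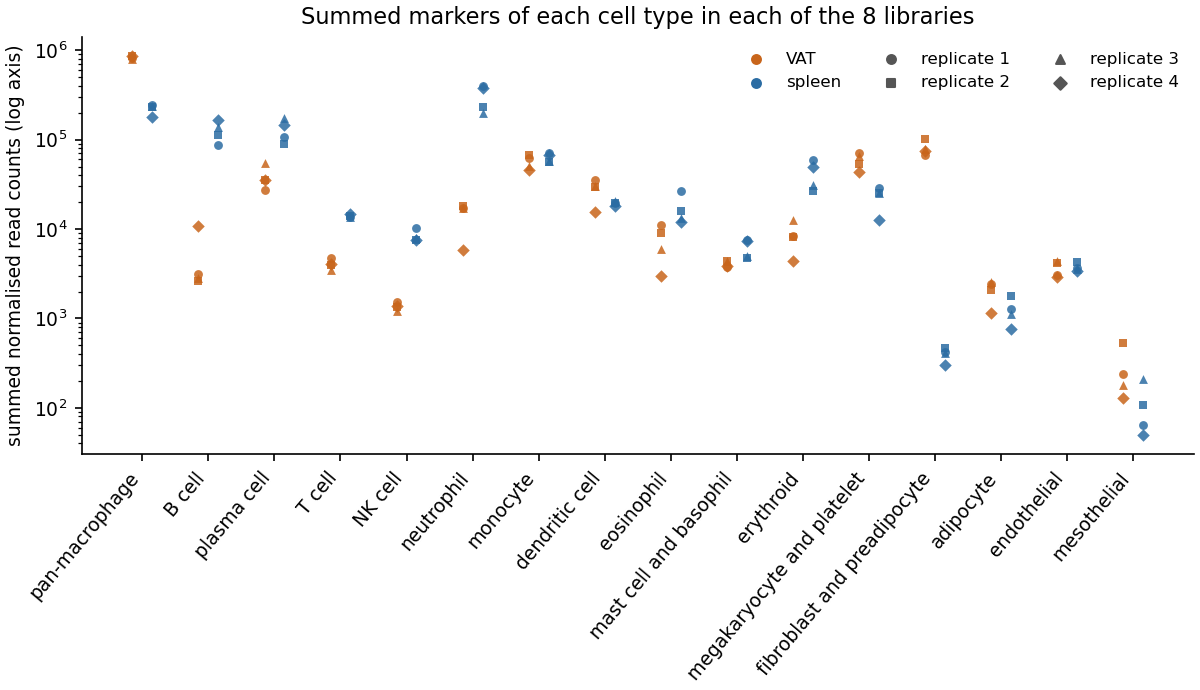
Summed normalised read counts (log axis) of the markers of each cell type in each of the 8 libraries, with orange for VAT, blue for spleen and a symbol for each replicate. B cell, neutrophil, T cell and natural killer cell sums lie higher in every spleen library, fibroblast and pan-macrophage sums in every VAT library. Monocyte, dendritic cell, adipocyte and endothelial sums overlap between tissues as plotted, but not without each list's top member (Fn1, Cd209a, Fasn and Pecam1). Eosinophil sums and mast cell and basophil sums do not overlap as plotted, but do without Prg2 and Hdc. Mesothelial sums overlap either way. Megakaryocyte and platelet sums lie higher in VAT as plotted, and higher in spleen without Pf4.

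Red pulp macrophage genes separated the tissues in the direction of spleen. Of 10 red pulp markers, 7 were called higher in spleen, 2 in VAT and 1 was not called (median −2.07). Spic encodes Spi-C. Its value was 9710, 9620, 7994 and 7349 in the spleen libraries and 1673, 1412, 1573 and 1491 in the VAT libraries. The ranges did not overlap, and the difference was −2.49 (SE 0.16, adjusted p = 6.11e-09). Slc40a1, which encodes the iron exporter ferroportin, reached 34650 to 42344 in spleen and 3458 to 5978 in VAT (−3.12, SE 0.22, adjusted p = 1.7e-08). Itgad, the integrin subunit CD11d of red pulp macrophages, was at 2471 to 5209 in spleen, at 16.1 and 17.1 in VAT replicates 4 and 1 and at 0 reads in the other two. Treml4, a receptor that binds dying cells, stood at 7104 to 8338 in spleen and 273 to 461 in VAT (−4.51, SE 0.33). The adhesion molecule gene Vcam1 was the least separated of the named members higher in spleen, at 23530 to 29636 against 5276 to 17265, where VAT replicate 4 supplied the upper end. Kcna2, a potassium channel gene, averaged 573 ± 318 in spleen and 11.6 ± 4.28 in VAT.

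The exceptions of the red pulp list were Hmox1 and Cd163. Hmox1, the inducible haem oxygenase, was at 16658, 19510, 26559 and 27151 in VAT and at 16371, 16563, 10167 and 9826 in spleen. The lowest VAT library exceeded the highest spleen library by less than the spread within either tissue. Its difference of 0.78 (SE 0.29, adjusted p = 0.0351) was lost with edgeR (adjusted p = 0.0578), with quantile normalisation (0.19, adjusted p = 0.584), with total-read scaling (0.29, adjusted p = 0.384) and without VAT replicate 3 or 4 or spleen replicate 3 or 4 (adjusted p 0.0889 to 0.100). Cd163, the scavenger receptor for haemoglobin bound to haptoglobin, was at 11418, 12676, 17369 and 2485 in VAT and 1153 to 3163 in spleen (2.28, SE 0.46, or 2.90 without VAT replicate 4). That library lay within the spleen range. Cd163 also belongs to the adipose resident list.

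Beyond the red pulp markers, the wider iron and haem list leaned to VAT. Of 21 members, 16 were called higher in VAT, 2 in spleen and 3 were not called (median 1.36), and with total-read scaling the split was 14 and 4. Tfrc, the transferrin receptor that imports iron, stood at 5128, 4995, 5402 and 2679 in VAT and at 217 to 526 in spleen. Every VAT library exceeded every spleen library (3.66, SE 0.27, adjusted p = 2.16e-08), with VAT replicate 4 the lowest of its group. Cp, ceruloplasmin, oxidises iron for loading on transferrin and was at 5147 to 6795 in VAT and 128 to 513 in spleen (4.78, SE 0.42). The exporter gene Slc40a1 was thus higher in spleen, and the importer gene Tfrc was higher in VAT.

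Marginal zone genes divided by gene. Of 6 members, 4 were called higher in spleen and 2 in VAT. Cd5l, a secreted scavenger protein that supports macrophage survival, was at 3411 to 6105 in spleen and 173 to 571 in VAT (−3.96, SE 0.32, adjusted p = 5.76e-08). The members higher in VAT were Siglec1 (CD169, a sialic acid lectin) and the C-type lectin gene Cd209b (SIGN-R1), both of which mark macrophages of the marginal zone in spleen. Siglec1 was at 859 to 1329 in VAT and at 0 to 114 in spleen, with 0 reads in spleen replicate 4. Cd209b was at 18282, 18474, 22750 and 4848 in VAT against 207, 0 reads, 5.45 and 22.1 in spleen. Neither gene overlapped between tissues (4.81, SE 0.94, and 9.78, SE 1.10). Of these 2 markers, the sorted spleen cells held few reads. The scavenger receptor gene Marco was among the 4 members called higher in spleen. Without Cd209b, the top member, the list summed to 9422 to 16148 in spleen and 4550 to 6143 in VAT.

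**Figure D3:**
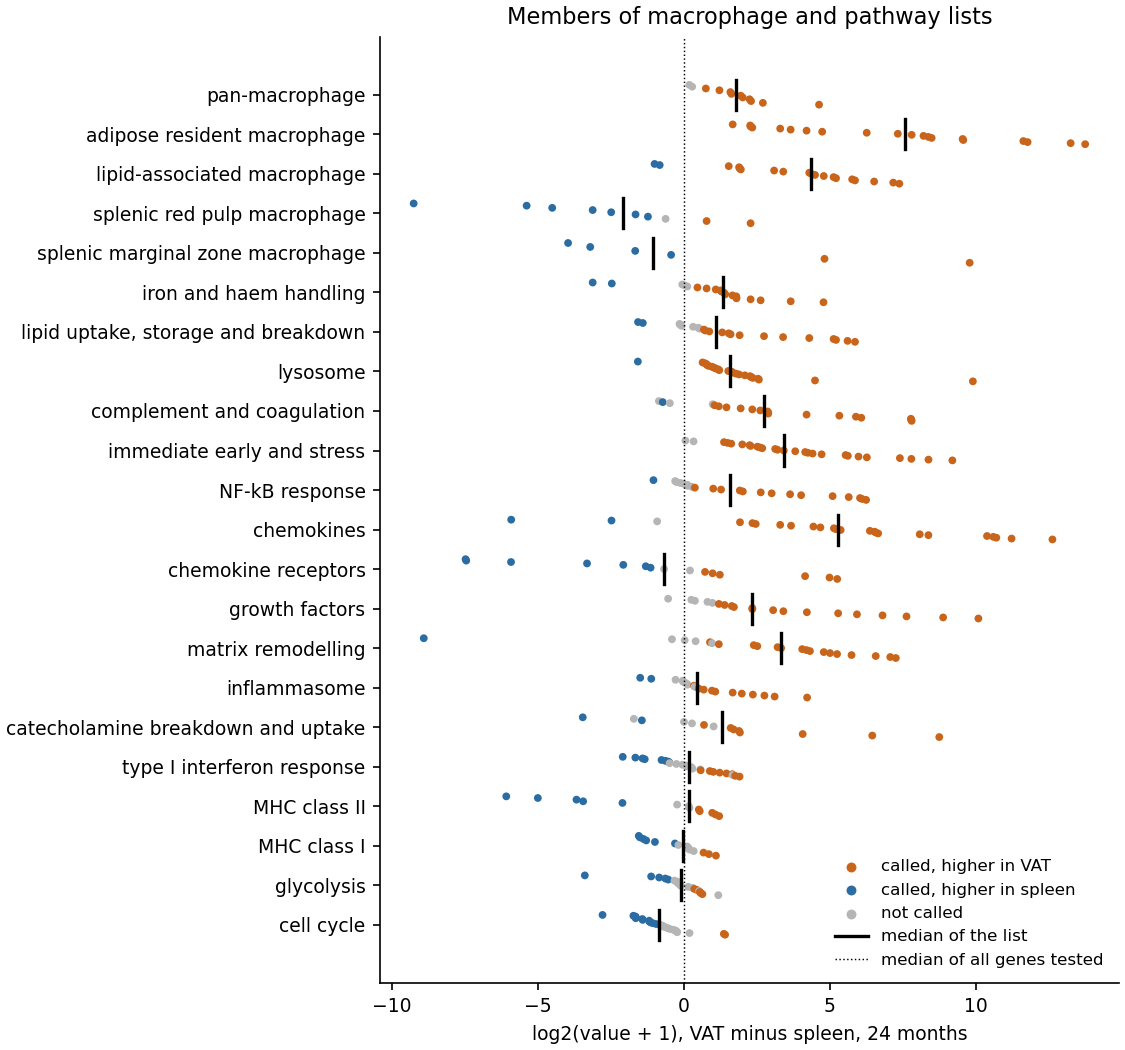
Members of each list by their difference in log2(value + 1), VAT minus spleen, at 24 months. Points are genes, orange when called higher in VAT, blue when called higher in spleen and grey when not called. Black bars are list medians and the dotted line is the median of all genes tested. All 20 adipose resident markers lie to the right of 0, and 7 of the 10 red pulp markers are called on the left.

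Every adipose resident macrophage marker tested was higher in VAT. All 20 were called (26.6% of all genes were called in this direction), with a median of 7.56, and the count was also 20 without VAT replicate 4 and without spleen replicate 1. Cd209f, a C-type lectin gene, was at 159262, 133604, 169826 and 55194 in VAT and at 13.7, 21.6, 0 reads and 7.64 in spleen. VAT replicate 4 was the lowest of its group and still far above spleen (13.74, SE 0.56, adjusted p = 4.1e-11). Retnla (RELM-α), a secreted protein of macrophages exposed to interleukin-4, was at 387158, 254548, 293880 and 57716 in VAT and 54, 354, 3.89 and 0 reads in spleen. Its difference was 13.24 (SE 1.15), or 13.84 without VAT replicate 4. Folr2, folate receptor β, stood at 39266 to 62217 in VAT and at 0 to 49.7 in spleen (11.77, SE 0.65, adjusted p = 1.03e-09). The hyaluronan receptor gene Lyve1 was at 22849, 33112, 40650 and 9511 against 11.7 to 73.2 (9.57, SE 0.48). Fcrls, an Fc receptor-like gene of resident macrophages and microglia, was at 10549 to 22791 in VAT, at 32 and 6.56 in spleen replicates 1 and 2 and at 0 reads in the other two. The mannose receptor gene Mrc1 was present in both tissues, at 29921 to 54634 and 2027 to 4662 (3.65, SE 0.24). Timd4, which binds phosphatidylserine on dead cells, was the least different member at 3107, 3314, 4866 and 1177 in VAT and 617 to 1663 in spleen (1.67, SE 0.41, adjusted p = 0.00314). Its ranges overlapped through VAT replicate 4, without which the difference was 2.08. Cd209g, which is no marker of the list but had one of the 12 largest called differences, followed Cd209f at 40701, 34986, 47067 and 13823 in VAT and at most 22.5 in spleen. Cd209b, Cd209f and Cd209g are related neighbours in the Cd209 family, so reads could have been split between them and their single values are uncertain.

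The Cd209f, Cd209g and Folr2 promoters are shown because these genes were among the most VAT-biased and each window shown holds an AP-1 motif, the binding sequence of the Fos and Jun factors whose genes are described further on. Each window is the 250 bases before an annotated start in GRCm38.p6, from RefSeq, 5′ to 3′ on the gene's strand, with the match in capitals (TGANTCA on either strand). Cd209f is at chr8:4102784-4105838 and its window is chr8:4105765-4106014 on the minus strand, with the match 83 bases before the start. Cd209g is at chr8:4134246-4137707 with the window chr8:4134486-4134735 on the plus strand, the start used being inside the annotated span, and a match at 97 bases. Folr2 is at chr7:101839988-101857190, and the window chr7:101845332-101845581 on the minus strand lies before its second, internal start, with the match at 74 bases. The window before the other Folr2 start, chr7:101857191-101857440, holds no AP-1 match and is not shown.
Cd209f: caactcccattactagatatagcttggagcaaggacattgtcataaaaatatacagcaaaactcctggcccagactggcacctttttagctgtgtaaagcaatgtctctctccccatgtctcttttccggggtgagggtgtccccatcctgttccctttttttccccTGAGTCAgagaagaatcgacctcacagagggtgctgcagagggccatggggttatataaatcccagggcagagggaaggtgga
Cd209g: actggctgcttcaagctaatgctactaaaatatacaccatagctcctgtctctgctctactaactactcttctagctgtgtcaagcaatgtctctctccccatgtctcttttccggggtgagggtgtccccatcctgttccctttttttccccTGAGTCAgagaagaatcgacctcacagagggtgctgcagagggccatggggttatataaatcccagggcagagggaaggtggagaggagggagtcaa
Folr2: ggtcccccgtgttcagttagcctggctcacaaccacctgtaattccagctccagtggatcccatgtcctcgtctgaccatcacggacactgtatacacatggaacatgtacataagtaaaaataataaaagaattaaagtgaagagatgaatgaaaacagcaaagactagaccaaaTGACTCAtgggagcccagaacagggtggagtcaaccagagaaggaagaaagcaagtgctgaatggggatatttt
The Cd209f and Cd209g windows share a run of 154 identical bases that includes the match. Among all 13110 windows of the 10324 genes tested that had one, 4.79% held the AP-1 letters. The share was 8.55% for genes higher in VAT by over 3, 6.16% for those higher in spleen by over 3 and 4.22% for genes not called. The windows also differed in composition, with a median of 15 CpG dinucleotides over all genes, 9 in the VAT group and 5 in the spleen group. A match describes letters in a window and is no evidence that a factor binds there.

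Lipid-associated macrophage genes were also higher in VAT. Of 19 markers, 17 were called higher in VAT and 2 in spleen (median 4.36), and without VAT replicate 4 the counts were again 17 and 2 (median 4.23). Trem2, the lipid receptor that defines these cells, was at 6296, 7212, 6731 and 16318 in VAT and 98.9, 40.3, 42.8 and 63.7 in spleen. VAT replicate 4 held more than the others of its group, and the difference of 7.17 (SE 0.32, adjusted p = 9.85e-11) was 6.85 without it. Gpnmb, a lysosomal glycoprotein gene, was at 4566, 6237, 4849 and 22888 in VAT and 22.5 to 149 in spleen (6.51, SE 0.57, or 5.98 without VAT replicate 4). Atp6v0d2, a subunit of the lysosomal proton pump, showed the same pattern of libraries, 1611 to 2038 in VAT replicates 1 to 3 and 13653 in replicate 4, against 2.81 to 109 in spleen. Its difference of 7.38 was 6.65 without VAT replicate 4 and 8.24 without spleen replicate 1, the highest spleen library. Cd36, the fatty acid transporter, varied little within a tissue, at 74088, 77678, 79181 and 92597 in VAT and 1730 to 2816 in spleen (5.21, SE 0.16, adjusted p = 3e-12). Lpl, lipoprotein lipase, was at 47830, 52106, 32610 and 129152 against 835 to 2397 (5.13, SE 0.37). The intracellular fatty acid carriers Fabp4 and Fabp5 differed unequally, Fabp4 by 5.86 (7091 to 20435 in VAT and 45 to 406 in spleen) and Fabp5 by 1.54 (1618 to 3923 and 487 to 1184). Apoe, the lipoprotein of cholesterol export, was at 510921 to 742761 in VAT and 57679 to 82493 in spleen (3.09, SE 0.18). The 2 members higher in spleen, named after their values were seen, were the tetraspanin gene Cd9 and the integrin gene Itgax (CD11c). Both overlapped between tissues, since VAT replicate 4 was at 17921 for Cd9 and 3092 for Itgax while the other VAT libraries lay below every spleen library. The Cd9 call (−0.83, adjusted p = 0.0356) was lost with edgeR, DESeq2, the 8 libraries alone and without any 1 of 6 of the 8 libraries. Without VAT replicate 4 it was −1.21 (adjusted p = 0.00023).

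The Trem2 promoter is shown as that of the defining receptor of this program. Trem2 lies at chr17:48346401-48352276, and the window chr17:48346151-48346400 on the plus strand (GRCm38.p6) holds an AP-1 match 9 bases before the start.
Trem2: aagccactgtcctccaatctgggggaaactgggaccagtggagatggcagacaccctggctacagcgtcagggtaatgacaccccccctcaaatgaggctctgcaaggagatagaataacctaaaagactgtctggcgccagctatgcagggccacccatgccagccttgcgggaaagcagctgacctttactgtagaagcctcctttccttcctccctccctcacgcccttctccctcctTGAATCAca

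Lipid storage, cholesterol and lysosome genes followed by function. In the list for lipid uptake, storage and breakdown, 14 of 22 were called higher in VAT and 2 in spleen (median 1.09). Hilpda, a lipid droplet protein that restrains lipolysis inside the cell, was at 10569 to 17304 in VAT and 183 to 419 in spleen (5.60, SE 0.25, adjusted p = 1.25e-10). Pparg, the nuclear receptor of lipid metabolism, was at 665, 801, 593 and 1815 in VAT and 736, 1153, 1062 and 794 in spleen. Without VAT replicate 4 its difference was −0.43 (adjusted p = 0.101) and with it −0.08 (adjusted p = 0.84), and it was called in neither. Of 22 cholesterol genes, 8 were called higher in VAT and 5 in spleen (6 and 7 with total-read scaling), against 26.6% and 22.5% of all genes. Among them Abca1, the cholesterol exporter, was at 5056 to 10993 in VAT and 591 to 869 in spleen (3.48, SE 0.21, adjusted p = 2.78e-09).

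In the lysosome list, 23 of 24 genes were called higher in VAT (median 1.58), and 19 of 24 were with either quantile or total-read scaling. Ctsl, a lysosomal protease gene, was at 23492 to 33806 in VAT and 961 to 1928 in spleen (4.49, SE 0.18). Ctsk, a collagen-degrading cathepsin gene, was at 1191, 2490, 2173 and 12150 in VAT and 2.75, 3.75, 0 reads and 1.7 in spleen (9.89, SE 0.60, or 9.22 without VAT replicate 4). Tfeb, the transcription factor that activates lysosomal genes, was the member higher in spleen and is named after its values were seen. It stood at 2300 to 3181 in spleen and 711 to 1281 in VAT (−1.57, SE 0.19, adjusted p = 4.37e-06).

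**Figure D4:**
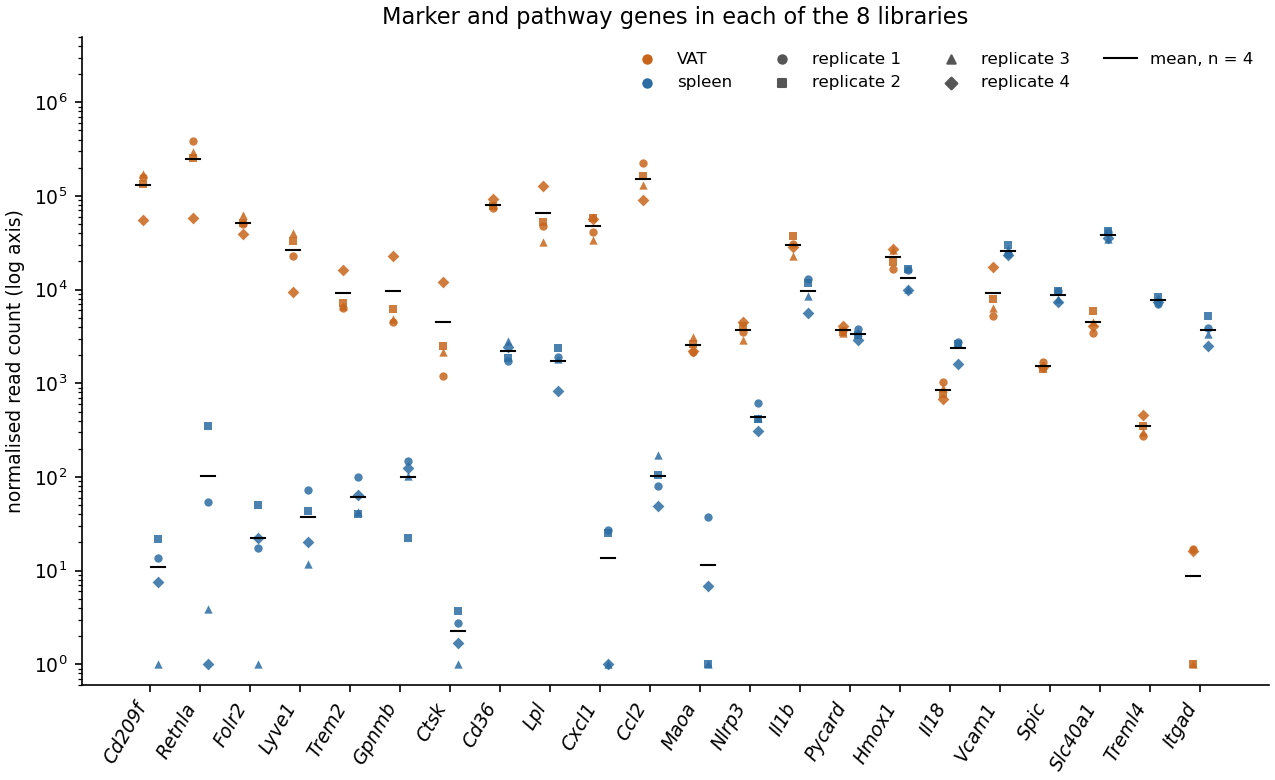
Normalised read counts (log axis) of marker and pathway genes in each of the 8 libraries, with orange for VAT, blue for spleen, a symbol for each replicate and a bar for the mean of 4. Points at 1 are libraries with 0 reads. VAT replicate 4 (orange diamond) is the highest VAT library for Trem2, Gpnmb, Ctsk and Lpl and the lowest for Cd209f, Retnla, Folr2 and Lyve1.

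Transcription factor genes of macrophages differed in both directions. Of 30, 15 were called higher in VAT, 8 in spleen and 7 were not called (median 0.29), against 13 and 11 (median −0.20) with total-read scaling. Klf4, a factor of monocyte and resident macrophage programs that is also induced by stress, was at 4966 to 15534 in VAT and 333 to 778 in spleen (4.15, SE 0.31, adjusted p = 2.52e-08). Bach2, which is expressed in B cells and restrains effector genes, was at 679 to 1178 in spleen and 30.4 to 159 in VAT (−3.57, SE 0.43). The B cell markers given above moved in the same direction as Bach2.

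Chemokine genes were higher in VAT with few exceptions. Of 24 members, 21 were called higher in VAT and 2 in spleen (median 5.28), and total-read scaling gave 21 and 3. Cxcl1, which attracts neutrophils, was at 41664, 58372, 34154 and 56032 in VAT, at 27.5 and 25.3 in spleen replicates 1 and 2 and at 0 reads in the other two (12.62, SE 0.71, adjusted p = 1.26e-09). Cxcl2, a ligand of the same receptor, was at 101436 to 134055 in VAT and 50.9 to 103 in spleen, with little spread in either (10.70, SE 0.18, adjusted p = 2.56e-15). The monocyte attractants Ccl2 and Ccl7, neighbours at chr11:82035577-82037452 and chr11:82045712-82047525, differed by 10.59 (SE 0.32) and 11.22 (SE 0.50). Ccl2 was at 221931, 161294, 131662 and 89589 in VAT and 49.2 to 173 in spleen. The members higher in spleen, named after their values were seen, were Ppbp and Ccl5. Ppbp, a platelet chemokine, was at 3357 to 8332 in spleen and 29.5 to 363 in VAT, and 10 of 11 platelet and megakaryocyte markers were called higher in spleen. The exception was the chemokine gene Pf4, the most abundant member, which was called higher in VAT and is also an adipose resident marker here. The platelet list summed to 43945 to 70742 in VAT and 12477 to 28894 in spleen. Without Pf4 the sums were 232 to 672 and 9335 to 21299. Ccl5, made by T and natural killer cells as well as macrophages, was at 8260 to 17271 in spleen and 1693 to 3343 in VAT. Markers of T and natural killer cells were higher in spleen too (10 of 13 and 11 of 12 called).

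Receptors for chemokines divided between the tissues, with 6 of 15 called higher in VAT and 7 in spleen (median −0.68). Cxcr2, the neutrophil receptor for Cxcl1 and Cxcl2, was at 4709 to 8704 in spleen and 18.2 to 49 in VAT (−7.45, SE 0.33). Ccr6, a receptor of B cells and some T cells, was at 1003 to 1875 in spleen and at 21 and 44.6 in VAT replicates 3 and 4, with 0 reads in the other two. Ccr2, the monocyte receptor for Ccl2, was at 6632 to 13116 in VAT and 5455 to 6739 in spleen, ranges that overlapped. Its difference of 0.72 (adjusted p = 0.00391) was lost with quantile (adjusted p = 0.171) and total-read scaling (adjusted p = 0.237). Cx3cr1, the fractalkine receptor, was higher in spleen at 1355 to 3129 against 544 to 942 (−1.30, SE 0.23, adjusted p = 0.000273).

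Inflammatory genes of the NF-κB response were mostly higher in VAT, 14 of 22 against 1 in spleen (median 1.59), or 13 and 5 with total-read scaling. Tnf was at 9512, 14486, 10882 and 16436 in VAT and 198, 237, 220 and 128 in spleen, without overlap (6.03, SE 0.22, adjusted p = 1.7e-11). Il6, a cytokine also made by fibroblasts, was at 2847 to 9080 in VAT and 44.2 to 131 in spleen (6.10, SE 0.74). Ptgs2, the inducible cyclooxygenase, was at 3580 to 5935 against 11.9 to 245 (6.24, SE 0.59). Nfkbiz, a nuclear IκB that is itself induced by NF-κB signals, was at 38960 to 53916 against 744 to 1087 (5.64, SE 0.14, adjusted p = 2.21e-13). Fibroblasts can express Il6, Cxcl1 and Ccl2 as well, and the fibroblast markers were higher in every VAT library. Their part in these values was not tested.

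Immediate early and stress genes, the transcription factors and regulators that cells switch on soon after a stimulus, were higher in VAT. Of 27, 25 were called higher in VAT and 0 in spleen (median 3.42), and 24 were with total-read scaling. Fosb, an AP-1 subunit, was at 9681, 12393, 16433 and 7577 in VAT and 53.1, 46.9, 3.11 and 11 in spleen (9.19, SE 0.60). Atf3, a stress-induced factor, was at 69072 to 92782 in VAT and 255 to 661 in spleen (7.39, SE 0.23, adjusted p = 3.33e-12). Nr4a2, a nuclear receptor of the early response, was at 1437 to 2207 in VAT and at 41.2 and 23.8 in spleen replicates 3 and 4, with 0 reads in the other two. Each of the 3 genes separated the tissues without overlap. In the 29 promoter windows of this list, 0 held the AP-1 letters, against 4.79% of all windows. The cAMP response letters TGACGTCA were in 3 (10.3%), against 2.49% of all windows. Other letters were also more frequent, TGACNNNGC in 8 (27.6% against 11.9%) and CACGTG in 6 (20.7% against 8.12%). The letters AGGTCA were less frequent, in 1 (3.45% against 11.2%). These windows had a median of 18 CpG dinucleotides, against 15 over all genes, and the part of composition in these shares was not tested.

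Growth factor genes leaned to VAT with 15 of 20 called, 0 called in spleen (median 2.34) and 12 and 1 with total-read scaling. Areg, amphiregulin, a ligand of the epidermal growth factor receptor, was at 1254 to 3426 in VAT with 0 reads in all spleen libraries, at least 898-fold higher when the mean floor of 3 reads is used. Gdf15, a stress cytokine, was at 13092, 11992, 14307 and 22687 in VAT and 20.4 to 56.8 in spleen (8.87, SE 0.28). Gdf3, a TGF-β family ligand expressed in fat macrophages, was at 630 to 2881 in VAT and 68.4 to 175 in spleen (3.41, SE 0.41, adjusted p = 5.41e-06). Il10, an anti-inflammatory cytokine, was at 3461 to 6935 in VAT and 10.2 to 182 in spleen (6.80, SE 0.59). Vegfa, the vascular growth factor, was at 127 to 771 in VAT and at most 30.2 in spleen (5.28, SE 0.74).

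Inflammasome genes were unequal between the tissues. Of 21, 11 were called higher in VAT and 2 in spleen (median 0.45), but with total-read scaling the counts were 7 and 5 and the median −0.03. Nlrp3 was at 3549, 4040, 2909 and 4507 in VAT and 610, 417, 426 and 312 in spleen. The ranges were separate, and the difference was 3.11 (SE 0.22, adjusted p = 1.27e-08). The adaptor gene Pycard, encoding ASC, was at 3427 to 4043 in VAT and 2901 to 3806 in spleen, an overlap (0.12, SE 0.14, adjusted p = 0.474), and its sign flipped with quantile (−0.10) and total-read scaling (−0.36, adjusted p = 0.0208). Casp1, the protease of the complex, was at 3253 to 3899 against 1987 to 3036 (0.51, SE 0.18, adjusted p = 0.0248). This call was lost with quantile (adjusted p = 0.106) and total-read scaling (0.03, adjusted p = 0.897) and without VAT replicate 2 (0.0561), VAT replicate 4 (0.0556) or spleen replicate 4 (0.0837). Of its substrates, Il1b was higher in VAT at 30488, 37664, 22848 and 28624 against 12931, 11825, 8454 and 5655 (1.67, SE 0.21, adjusted p = 9.26e-06). Il18, the other substrate, was higher in spleen at 2727, 2629, 2660 and 1596 against 672 to 1026 in VAT (−1.49, SE 0.20, adjusted p = 1.95e-05). Il1a, a related cytokine that needs no cleavage by caspase-1, was at 4333 to 9520 in VAT and 180 to 541 in spleen (4.22, SE 0.42).

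Catecholamine breakdown genes were led by the monoamine oxidases. Of 14 genes tested for breakdown and uptake, 8 were called higher in VAT and 2 in spleen (median 1.31), or 6 and 3 with total-read scaling. Maoa was at 2176, 2657, 3140 and 2225 in VAT and at 37.5, 0 reads, 0 reads and 6.79 in spleen. No library overlapped, and the difference was 8.74 (SE 0.87, adjusted p = 7.03e-07). Maob, its paralogue, was at 81.7 to 239 in VAT and at 0 reads in every spleen library, at least 72.2-fold higher. Sult1a1, which sulfates phenols and catecholamines, was at 3074 to 6354 in VAT and 111 to 530 in spleen (4.07, SE 0.38). The adrenergic receptor gene Adrb1, whose product senses catecholamines, was low in both tissues, at 50.4 to 66.9 in spleen and 0 reads to 7.37 in VAT (−3.72, SE 0.73, adjusted p = 0.00056).

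Antigen presentation and interferon genes gave no single direction. MHC class II genes were called 5 higher in VAT and 5 in spleen of 13 (median 0.17), or 2 and 7 with total-read scaling. Members that B cells also express were among those higher in spleen. H2-Oa, a subunit of the H2-O regulator of peptide loading, was at 6009 to 6854 in spleen and 127, 133, 189 and 464 in VAT (−5.00, SE 0.32, adjusted p = 5.01e-09). H2-Eb2 was at 796 to 1059 in spleen and 1.14 to 104 in VAT (−6.08, SE 0.92, or −7.06 without VAT replicate 4), and H2-DMb2, a chain of the peptide exchange factor, at 7451 to 10512 against 519 to 969 (−3.45, SE 0.18). VAT replicate 4 was the highest VAT library for all 3 of these genes and also for the B cell gene Ms4a1 (1434 against 245 to 331). In the type I interferon list 8 of 26 were called in each direction (median 0.17), with 5 and 11 under total-read scaling. Those shares were near the 26.6% and 22.5% of all genes called higher in VAT and in spleen. Isg20, a nuclease gene, was higher in spleen at 1159 to 2195 against 256 to 421. Oas2 and Oasl1, sensors of double-stranded RNA and their relatives, were higher in VAT at 452 to 690 against 72.3 to 212 and at 1082 to 1662 against 286 to 551.

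Complement genes were called higher in VAT at 16 of 20 and in spleen at 1 (median 2.74). C3ar1, the receptor for the anaphylatoxin C3a, was at 32073 to 45082 in VAT and 132 to 213 in spleen (7.78, SE 0.27, adjusted p = 9.1e-12). In the antioxidant list 9 of 18 were higher in VAT and 1 in spleen, but 5 and 5 with total-read scaling. Gpx3, a secreted glutathione peroxidase, was at 23727 to 34227 in VAT and 297 to 542 in spleen (6.06, SE 0.18), whereas Gsr, which regenerates glutathione, was at 9446 to 13564 in spleen and 862 to 2622 in VAT (−3.05, SE 0.26). The alternative activation gene Arg1, arginase, was at 1048, 1140, 825 and 172 in VAT and at 42.1 and 32.7 in spleen replicates 1 and 3, with 0 reads in the other two (6.20, SE 0.98, adjusted p = 8.16e-05, or 6.83 without VAT replicate 4). Glycolysis genes were called 5 and 5 of 20 (median −0.11), near the 26.6% and 22.5% of all genes, and 0 and 12 with total-read scaling.

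Cell cycle genes were called mostly in the direction of spleen. Of 25, 13 were called higher in spleen, 2 in VAT and 10 were not called (median −0.84). The counts were 21 and 2 with total-read scaling and 20 and 2 without VAT replicate 4. Plk1, a mitotic kinase, was at 965, 578, 429 and 762 in spleen and 143, 59.2, 25.3 and 356 in VAT (−2.78, SE 0.69, adjusted p = 0.00341, or −3.42 without VAT replicate 4). Ccnb1, cyclin B1, was at 889 to 1510 in spleen and 157 to 932 in VAT, where replicate 4 reached into the spleen range (−1.65, SE 0.40). B cell and neutrophil markers were higher in the same spleen libraries, and their part in this count was not tested. In the unfolded protein response list 5 of 16 were called in each direction, near the 26.6% and 22.5% of all genes. Dnajb9, a chaperone of the endoplasmic reticulum, was at 7864 to 12088 in VAT and 987 to 1557 in spleen (3.02, SE 0.17), and Chac1, which degrades glutathione, was at 150 to 505 in spleen and 29.6 to 89.9 in VAT (−2.14, SE 0.52).

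Genes of other blood cells were among those with the widest differences in the direction of spleen. Ngp, a neutrophil granule protein gene, was at 83421, 32992, 33543 and 110809 in spleen and at 13.7 and 4.75 in VAT replicates 3 and 4, with 0 reads in the other two. Camp reached 7963 to 19567 and Elane 3623 to 14022 in spleen, at least 4362-fold and 2703-fold above the mean VAT floor of 3 reads. Ltf (lactoferrin) and Mpo (myeloperoxidase), also of neutrophils and their precursors, were at 10054 to 41668 and 3102 to 12421 in spleen. Spleen replicates 1 and 4 were the 2 highest for Ngp, Camp, Elane, Ltf and Mpo alike. The B cell gene Ms4a1 (CD20) was at 16084 to 31893 in spleen, and Cr2, complement receptor 2 of B cells and follicular dendritic cells, was at 2857 to 5536 in spleen and at most 13.7 in VAT (−10.34, SE 0.77). For Ms4a1 the order of the spleen libraries was different, with replicate 4 highest and replicate 1 lowest. The T cell receptor chain gene Cd3e was at 436 to 690 in spleen and 66.3 to 158 in VAT (−2.35, SE 0.40).

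Plasma cell, platelet, red cell and basophil genes were measured as well. Jchain, the joining chain of secreted IgA and IgM, was at 80305 to 161031 in spleen and 23553 to 50911 in VAT (−1.79, SE 0.33, adjusted p = 0.000362). Of the 5 plasma cell markers 2 were called higher in spleen and 3 were not called (median −0.08). The platelet glycoprotein gene Gp5 was at 429 to 1046 in spleen, and VAT replicate 1 alone held a read. Gp9, of the same surface complex, was at 681 to 2424 in spleen and at 5.7 in VAT replicate 4, with 0 reads in the other 3. Of 15 erythroid genes 12 were called higher in spleen and 2 in VAT (median −3.93, or −4.12 with members at 0 reads placed at their bound). Alas2, the haem synthesis enzyme of red cell precursors, was at 221 to 718 in spleen and at 0 reads, 5.1, 56.8 and 9.5 in VAT. Mcpt8, a basophil protease gene, was at 437 to 1946 in spleen and 2.85 in VAT replicate 4, with 0 reads in the other VAT libraries. The connective tissue mast cell gene Tpsb2 ran the other way, at 1474 to 1952 in VAT with 0 reads in spleen, at least 666-fold. Members of the Mcpt and globin families share sequence, and reads could be split between them.

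The promoters of Gp5 and Alas2 are shown because genes of platelets and red cells were among the spleen-biased groups and these windows hold the GATA letters AGATAA, read on either strand. Gp5 lies at chr16:30307685-30310781, and its window chr16:30310782-30311031 on the minus strand holds 2 matches, the first of which begins 93 bases before the start. Alas2 lies at chrX:150547417-150570622, and its window chrX:150547167-150547416 on the plus strand holds 1 match 86 bases before the start. Both come from RefSeq on GRCm38.p6.
Gp5: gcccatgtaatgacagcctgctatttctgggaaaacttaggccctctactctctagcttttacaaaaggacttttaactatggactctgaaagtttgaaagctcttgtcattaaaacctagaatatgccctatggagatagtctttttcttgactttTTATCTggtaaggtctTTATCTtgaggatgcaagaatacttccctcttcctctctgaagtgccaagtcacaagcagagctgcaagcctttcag
Alas2: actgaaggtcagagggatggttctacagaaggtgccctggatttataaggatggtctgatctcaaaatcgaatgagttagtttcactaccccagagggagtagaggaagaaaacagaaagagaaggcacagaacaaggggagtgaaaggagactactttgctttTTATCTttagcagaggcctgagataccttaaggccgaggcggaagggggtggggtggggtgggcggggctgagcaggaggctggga
The GATA letters were in 9.89% of windows of genes higher in spleen by over 3, in 6.61% of those higher in VAT by over 3 and in 6.22% of all windows. Median shares of G and C bases in these windows were 54.4%, 57.2% and 59.2%. The part of this composition in the GATA shares was not tested.

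Stromal genes formed the corresponding VAT group. Dcn (decorin), a matrix proteoglycan of fibroblasts, was at 42132, 62877, 49020 and 36005 in VAT and at 4.58 and 10.3 in spleen replicates 1 and 2, with 0 reads in the other two (13.51, SE 0.69, adjusted p = 4.8e-10). Lum (lumican) was at 3345 to 6068 in VAT, with reads in spleen replicate 1 alone, and Col3a1, type III collagen, at 4571 to 9116 against 0 reads to 12.2. Has1, a hyaluronan synthase, was at 2624 to 4336 in VAT and 0 reads in spleen, at least 1220-fold. The summed adipocyte markers overlapped between tissues, at 1150 to 2538 in VAT and 756 to 1800 in spleen. Without Fasn, a fatty acid synthesis gene and the list's top member, the sums were 773 to 2227 and 169 to 437 and did not overlap. Of those 9 adipocyte genes 6 were called higher in VAT. Cidec, which enlarges lipid droplets, was at 172 to 449 and Cfd (adipsin), a secreted protease, at 74.1 to 1002 in VAT, both with 0 reads in every spleen library.

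Whether a tissue difference at 24 months differed from that at 3 months was tested as a tissue by age interaction. Of 13702 genes, 375 (2.74%) were called, 187 (1.36%) with a higher VAT minus spleen difference at 24 months and 188 (1.37%) with a lower one. At an unadjusted p under 0.05 there were 2292. The count moved with the fit, from 123 without VAT 3-month replicate 3 to 655 without spleen 3-month replicate 2, and it was 798 with DESeq2. At 135 of the 375 the tissue difference had opposite signs at the 2 ages. Of the genes called higher in VAT at 24 months, 2454 of 3639 (67.4%) were also called higher in VAT at 3 months, where 23.2% of all genes tested were. Of those called higher in spleen, 1904 of 3087 (61.7%) were called likewise at 3 months, against 18.7% of all genes. The 3-month difference uses none of the 24-month libraries. Its p-values do, since the spread of a gene and the filter on its mean were taken over all 13 wild-type libraries. The calls at the 2 ages are therefore not independent.

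**Figure D5:**
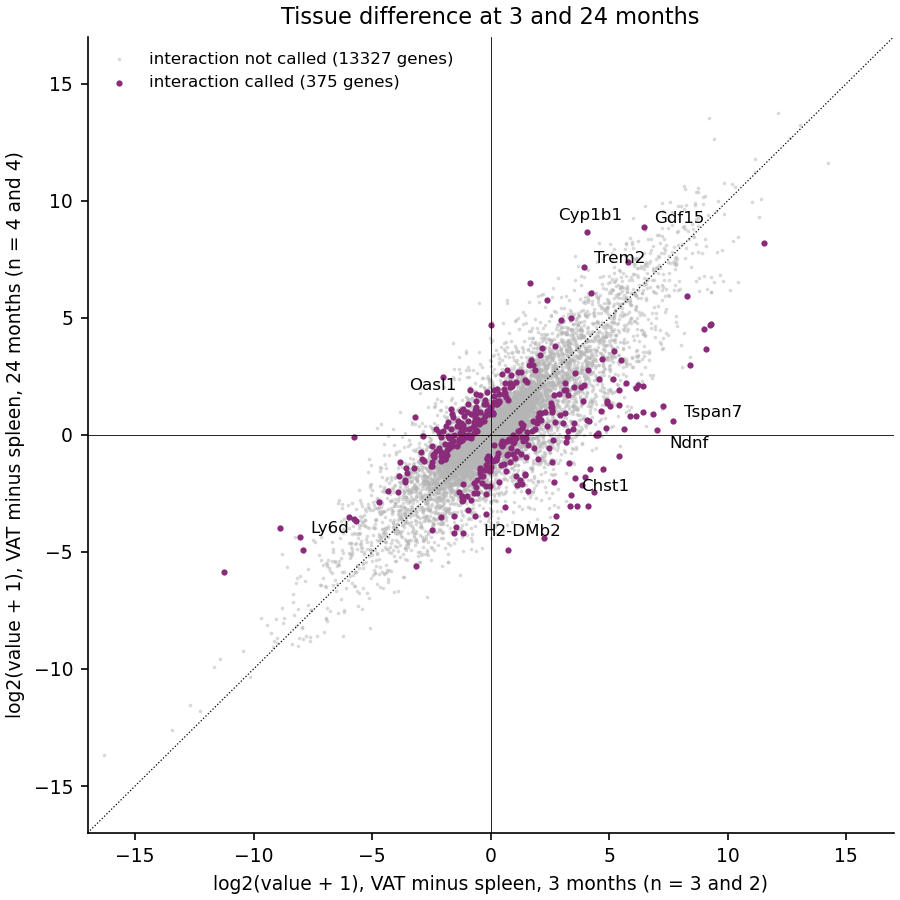
Each point is a gene, with the VAT minus spleen difference in log2(value + 1) at 3 months on the x axis (n = 3 and 2) and at 24 months on the y axis (n = 4 and 4). The dotted line marks equal differences. The 375 genes called for the interaction are purple, among them Trem2 and Gdf15 above the line and Tspan7, Ndnf and Chst1 below it.

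Genes whose VAT minus spleen difference was higher at 24 months included Trem2, Gdf15 and Gpx3. Trem2 differed by 3.94 at 3 months, with 2791 to 3542 in VAT and 161 and 243 in spleen, and by 7.17 at 24 months (interaction 3.23, SE 0.52, adjusted p = 0.0045). Its VAT value was higher and its spleen value lower in the older libraries. Gdf15 went from 6.45 to 8.87 (interaction 2.42, SE 0.46, adjusted p = 0.0135), with 2965 to 4077 in 3-month VAT. This call was lost without VAT 3-month replicate 3 (adjusted p = 0.0517) or spleen 3-month replicate 1 (adjusted p = 0.0517). Gpx3 went from 4.21 to 6.06 (adjusted p = 0.0039). Cyp1b1, a steroid and retinoid oxidising enzyme that fibroblasts also express, was at 227 to 352 in VAT and 7.12 and 34.4 in spleen at 3 months, and at 651 to 1006 in VAT with 0 reads in spleen at 24 months (interaction 4.59, SE 0.82). Pla1a, a phosphatidylserine lipase, went from 2.37 to 5.78 (adjusted p = 0.0403), and 10 of the 13 single-library omissions ended that call. Oas2 and Oasl1 changed sign, from −0.88 to 1.91 and from −0.62 to 1.76 (interaction adjusted p = 0.0148 and 0.00357). At 3 months they were at 225 to 420 in VAT against 537 and 661 in spleen, and at 588 to 693 against 888 and 1140. The Oas2 call was lost without VAT 3-month replicate 3 (adjusted p = 0.0511) or spleen 3-month replicate 1 (adjusted p = 0.0746). In all, 14 of the 26 type I interferon genes were called for the interaction, against 2.74% of all genes. The difference of Ly6d, a B lineage gene, was −4.35 at 24 months and −8.03 at 3 months (interaction adjusted p = 0.00274).

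Genes whose difference was lower at 24 months included Tspan7, Plvap and H2-DMb2. Tspan7, a tetraspanin gene, was at 387 to 435 in 3-month VAT against at most 1.02 in spleen, and at 85.3 to 288 in VAT against 44.2 to 287 in spleen at 24 months (interaction −7.13, SE 0.88, adjusted p = 0.00103). Plvap, the diaphragm protein of fenestrated endothelium, was at 691 to 1201 in 3-month VAT and 67.1 to 399 in 24-month VAT (interaction −5.96, SE 1.04, adjusted p = 0.00785). Ndnf, a secreted neurovascular factor, and Ramp3, a co-receptor for adrenomedullin, had interactions of −6.78 (adjusted p = 0.00301) and −6.03 (adjusted p = 0.00556), and neither was called between tissues at 24 months. Chst1, a sulfotransferase gene, and Art3 changed sign, from 3.39 to −2.58 and from 3.64 to −3.05. In VAT replicate 3 Art3 had 0 reads, and without that library its 24-month difference was −1.77 (adjusted p = 0.0517). The same call was lost with edgeR (adjusted p = 0.0786) and without spleen replicate 4 (adjusted p = 0.0544). The Art3 interaction (adjusted p = 0.046) was lost under 10 of the 13 single-library omissions, and that of Chst1 (adjusted p = 0.0135) without spleen 3-month replicate 1 (0.0736). H2-DMb2 went from −0.66 to −3.45 (interaction −2.79, SE 0.30, adjusted p = 0.00103), where the 3-month VAT libraries held 2796 to 3673 and the 24-month ones 519 to 969. The Ccr2 difference went from 2.02 to 0.72 (adjusted p = 0.0337), with 21402 to 28813 in 3-month VAT, a call that 8 of the 13 single-library omissions ended.

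In Nlrp3-null mice of 24 months the same tissues were read from separate tables. Nlrp3 itself was at 0.314, 0.328, 0.187 and 6.29 CPM (reads of a gene scaled to a common total per library) in the null VAT libraries and at 0, 0.125 and 0 in the null spleen libraries, against wild-type means of 104.8 and 17.1. The fourth null VAT library held more Nlrp3 reads than the others. Of the 2970 genes called higher in wild-type VAT that both tables held, 1564 (52.7%) had every null VAT library above every null spleen library in CPM, and 72 the opposite. Of 2706 called higher in wild-type spleen, 2308 (85.3%) had the null spleen libraries above, and 0 the opposite. Over all 12144 shared genes the CPM shares were 14.3% with VAT above and 37.6% with spleen above. In CPM the median gene lay at −0.38 on the log2 scale. After rescaling by the median of ratios over shared genes, an alternative chosen after seeing the data, the shares were 74% and 67%, with 2 and 1 in the opposite direction. On that scale, 23.1% of all shared genes had VAT above and 21.2% had spleen above.

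The macrophage groups were read on the same rescaled values. All 18 adipose resident markers in both tables had the null VAT libraries above, as did 16 of 19 lipid-associated markers, with 1 in the direction of spleen. Trem2 was at 4984, 6550, 8645 and 11551 in null VAT and 326, 307 and 130 in null spleen. Retnla was at 91827 to 288828 against 0 to 54.1, and Cd36 at 57702 to 62664 against 1964 to 2822. Of 8 red pulp markers, 4 had the null spleen libraries above and 1 had the null VAT libraries above. Among the former, Spic (7599 to 9300 against 1164 to 2011) and Slc40a1 (31275 to 54457 against 2565 to 4322) were higher in every null spleen library than in any null VAT library. Maoa was at 1353 to 2405 in null VAT and 28.7 to 39.5 in null spleen, Il1b at 28596 to 41770 and 8573 to 14422, and Ccl2 at 83086 to 153862 and 102 to 152. These are values set side by side, and no test was made between genotypes.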

How the data were processed

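RNA-seq of sorted mouse macrophages was read from 3 tables of the authors' normalised read counts per gene, for wild-type, VAT and spleen libraries. These deposited values are a signal in which a gene's reads were divided by a library size factor, as the values themselves show, and 0 reads are listed at 1. Per the submitters' processing notes the tools included CASAVA 1.8.2, TopHat, Partek and DESeq2, with the build mm10. Of values up to 20000 reads, at least 99.769% in each wild-type library corresponded to whole reads within 0.05 read, which gave back the reads and depth. The tables were normalised separately, so the Nlrp3-null libraries were compared without a test.

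Genes averaging 10 or more across the 13 wild-type libraries were tested on log2(value + 1) with limma 3.58.1 (R 4.3.3) and trend, 2-sided, with 4 groups sharing 1 spread, and Benjamini-Hochberg adjustment over all 13702 genes. edgeR 4.0.16 and DESeq2 1.42.0 on recovered reads, other pseudocounts, filters and scalings, the 8 libraries alone and omission of each library were alternatives. Scaling to total reads and the rescaling of null libraries were added after seeing the data. The members and the 49 gene lists were chosen with earlier results of these data known. Genes named are up to 12 with the largest called, non-overlapping differences in each direction and a mean of at least 2000, up to 4 called members per list, fixed genes of the study's theme, and up to 6 interaction genes in each direction with a mean of at least 100. List members at 0 reads in 1 tissue were placed at 3 reads for bounds. Promoters were the 250 bases before RefSeq starts (GRCm38.p6), found for 159 of 223 named genes. Some genes of the lists and of the naming rule are not reported here by name.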

Additional observations from a re-analysis of the deposited data

Results flagged for a closer look

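Within the groups of 4 libraries, 24 of 227 gene groups held 1 library whose gap to the nearest other exceeded Dixon's 95% critical value. Chance alone flags about 1 in 20 where values are normal and the gene groups independent. The values here were counts without logs, some of them low, and genes of a library can move together. The 24 of 227 therefore cannot be set against that rate. VAT replicate 4 accounted for many of the flags. It was above the other VAT libraries for Trem2 (16318 against 6296 to 7212), Gpnmb (22888 against 4566 to 6237), Fabp4 (20435 against 7091 to 8247), Pparg (1815 against 593 to 801), Atp6v0d2 (13653 against 1611 to 2038) and Ctsk (12150 against 1191 to 2490). The same library was high for the B cell gene Ms4a1 (1434 against 245 to 331) and for Oasl1 (1662 against 1082 to 1132). It was low for Tfrc (2679 against 4995 to 5402).

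Other VAT libraries stood out at single genes. VAT replicate 3 was high for Oas2 (690 against 452 to 465), Cr2 (13.7 against at most 1.14) and Alas2 (56.8 against at most 9.50), and Art3 was listed at 1.0 there against 63.7 to 73.1. VAT replicate 1 was high for Ltf (84.2 against at most 3.80), and VAT replicate 2 for Plvap (399 against 67.1 to 123).

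In spleen, replicate 4 was low for Cd68 (11618 against 15777 to 16109), Il18 (1596 against 2629 to 2727) and Ppbp (3357 against 7562 to 8332). Spleen replicate 1 was high for Cd209b (207 against at most 22.1), Atp6v0d2 (109 against 2.81 to 18.7) and Maoa (37.5 against at most 6.79). Spleen replicate 2 was high for Cd209g (22.5 against at most 4.58), Retnla (354 against at most 54.0) and Abca1 (869 against 591 to 630).

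The tissue difference changed with age, by the interaction term, at 17 genes named here. The signed VAT minus spleen difference was higher at 24 months for Cyp1b1 (4.59), Ly6d (3.68), Pla1a (3.40), Trem2 (3.23), Oas2 (2.78), Gdf15 (2.42), Oasl1 (2.38), Gpx3 (1.85) and Atf3 (1.62, adjusted p = 0.035). For Ly6d, which was higher in spleen at both ages, that was a smaller gap. The Atf3 call was lost with quantile normalisation (adjusted p = 0.0651) and without any 1 of 7 of the 13 libraries (adjusted p 0.0629 to 0.181). The signed difference was lower for Tspan7 (−7.13), Ndnf (−6.78), Art3 (−6.69), Ramp3 (−6.03), Chst1 (−5.97), Plvap (−5.96), H2-DMb2 (−2.79) and Ccr2 (−1.30).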

How the results depend on the processing

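Of 121 genes named at 24 months, 111 kept their direction and their side of the threshold under every alternative run, and of 17 interaction genes 7 did. Many of these genes were named for large called differences in these same data. Keeping a call was thus partly set by that choice, and these counts do not describe genes in general. The tissue count was 5963 to 8136 of the genes tested under the alternatives with all libraries and 5991 to 6902 with 1 library left out. The interaction count was 123 to 655 with 1 library left out, 798 with DESeq2 and 96 with the replicate block. Same-numbered 24-month libraries of the tissues correlated by 0.004 to 0.077, and 3-month ones by 0.0045 and −0.0157. At 24 months VAT replicates 2 and 4 correlated best with their own number, and replicates 1 and 3 did not. Such small correlations, with labels that do not tie libraries to mice, cannot settle whether same-numbered libraries were paired. The block is therefore given as a setting. Under that block the tissue count was 6501, the calls of Hmox1 (adjusted p = 0.0595) and Cd9 (0.0514) were lost, and so were those of 10 of the 17 interaction genes (adjusted p 0.0531 to 0.171), among them Plvap, Cyp1b1, Ramp3 and Chst1. Signs turned for Pparg (main −0.079) with edgeR (0.011) and DESeq2 (0.053) and without VAT replicate 1 (0.050), VAT replicate 3 (0.10) or spleen replicate 2 (0.029), from −0.43 to 0.10 over the omissions. They turned for Pycard with quantile (−0.10) and total-read scaling (−0.36), and for Ndnf with total-read scaling (−0.26) and without VAT replicate 2 (−0.076) or spleen replicate 1 (−0.030), from −0.076 to 0.45 over the omissions. Without its top member, the log2 ratio of median marker sums was −0.62 for dendritic cells, 0.0997 for mast cells and basophils, −6.01 for megakaryocytes and 1.12 for endothelium, each of the opposite sign to the full list. It was −0.76 for monocytes, 6.37 for fibroblasts, 2.18 for adipocytes and 4.87 for mesothelium. The mesothelium ratio rests on a spleen median of 6, where members at 0 reads are listed at 1. Its sums without the top member overlapped, at 108 to 510 in VAT and 6 to 140 in spleen. In the null libraries rescaling gave 74% and 67% in place of 52.7% and 85.3%. Values at or under 3 reads, a mean of 3.12 in VAT and 2.61 in spleen, set the depth limit. The cause of these changes was not tested.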

Other observations

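Receptor families not described above also divided between the tissues. Of 18 scavenger and efferocytosis receptors 12 were called higher in VAT and 4 in spleen (median 1.67). Of 9 Fc receptors 5 were called higher in VAT and 4 in spleen. Those 4 include Fcer2a, which is also among the 11 B cell markers called higher in spleen. Of 20 Toll-like receptors and adaptors 9 were called higher in VAT and 2 in spleen (median 0.12), and 7 and 7 with total-read scaling. Matrix remodelling genes were called at 16 of 21 in VAT and 1 in spleen (median 3.33), beside the fibroblast markers that were higher in the same libraries, whose part was not tested. MHC class I genes were called at 3 of 14 in VAT and 6 in spleen (median −0.04), and 2 and 9 with total-read scaling.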
